A study of Homo sapiens with 4 samples.

Results

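The aminoacyl-tRNA synthetases of human lung adenocarcinoma cells were followed across a gain and a loss of PSAT1. The genes were chosen by their symbols: a one-letter amino acid code followed by ARS, with an optional 1 or 2, plus EPRS1, FARSA and FARSB, and without the AIMP scaffold genes. The rule kept probe sets annotated with exactly 1 gene symbol and, for each gene, the probe set with the highest mean log2 signal over the 4 arrays. It found 32 genes among 19740 with a named probe set, 17 of them cytosolic enzymes and 15 mitochondrial ones. MARS1, QARS1 and TARS2, 3 genes of the family, were left out because their probe sets carry several symbols, and family genes without a named probe set were not analysed here. The groups were CL1-0 cells with a PSAT1 vector, CL1-0 cells with a control vector, CL1-5 cells with a PSAT1 short hairpin vector and CL1-5 cells with a non-silencing hairpin vector. CL1-5 is the more invasive line and was obtained from CL1-0. All 4 populations were stably transduced and held in puromycin for 2 weeks, and the labels name the source cell as a type II alveolar cell. Each group was 1 Affymetrix array of biotin-labelled cRNA, so there was no replicate and no test, and each difference covers the culture and the hybridization as well as the construct. Both are established cell lines, and the labels name a single PSAT1 hairpin vector and a single PSAT1 expression vector.

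Aminoacyl-tRNA synthetases join each amino acid to its tRNA before the tRNA enters the ribosome. Cells carry separate enzymes for the cytosol and for mitochondria, and most mitochondrial ones are marked by the ending 2. GARS1 and KARS1 are known to serve both compartments. The enzymes fall into classes I and II by the fold of the catalytic domain. Several cytosolic enzymes sit in a multisynthetase complex held by the AIMP proteins. Uncharged tRNA activates the kinase GCN2, encoded by EIF2AK4, which raises translation of the transcription factor ATF4, and ATF4 is known to induce many cytosolic synthetase genes along with amino acid transporters. PSAT1, phosphoserine aminotransferase, acts in serine synthesis and is itself an ATF4 target.

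The C/EBP-ATF response element, the site through which ATF4 acts, was searched for in promoter sequences from RefSeq (GRCh38.p14) as TGATGNAA on both strands, over 250 bases before and 50 after each annotated start. Of the 32 genes, 27 had a promoter entry, 36 entries in all. AARS2, LARS1, VARS1, VARS2 and YARS1 had no entry and were not searched. The letters were found in 7 of the 27 genes (25.9%), against 3.62% of all 35116 promoter entries and 2.65% of the 10609 genes that were measured in CL1-0 and had an entry. The 7 sites are shown because the CL1-0 ratios below are read against them. Each is given on the gene's strand with the match in capitals.
AARS1 (chr16:70289675-70289704, minus strand): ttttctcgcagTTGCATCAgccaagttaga
CARS1 (chr11:3057407-3057436, minus strand): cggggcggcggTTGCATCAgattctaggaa
GARS1 (chr7:30594834-30594863, plus strand): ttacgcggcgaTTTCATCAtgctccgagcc
IARS1 (chr9:92293692-92293721, minus strand): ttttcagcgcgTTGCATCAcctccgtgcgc
NARS1 (chr18:57621804-57621833, minus strand): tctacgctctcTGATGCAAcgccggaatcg
TARS1 (chr5:33440956-33440985, plus strand): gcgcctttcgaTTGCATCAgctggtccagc
YARS2 (chr12:32756076-32756105, minus strand): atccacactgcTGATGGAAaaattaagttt
All of these genes except YARS2, the mitochondrial tyrosine enzyme, encode cytosolic enzymes. The matches in GARS1 and IARS1 began 33 and 13 bases before the start, that in CARS1 spanned the start, those in TARS1 and NARS1 lay just after it, and those in AARS1 and YARS2 lay 187 and 197 bases before it. A match is a description of letters and not evidence of binding.

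A pair of other promoters is shown for genes that stand out below. WARS1 held the interferon element searched as GAAANNGAA, 55 bases before its start, and MARS2 held the E-box CACGTG, the site of MYC, 11 bases before its start. The E-box reads the same on either strand.
WARS1 (chr14:100375383-100375412, minus strand): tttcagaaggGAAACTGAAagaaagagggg
MARS2 (chr2:197705346-197705375, plus strand): atgcgcctctcaCACGTGctgtcagaacgc
The interferon letters were in 4 of 27 genes of the family (EARS2, GARS1, IARS1 and WARS1), against 8.11% of all entries. The E-box was in 4 of 27 (CARS2, EARS2, IARS1 and MARS2), against 7.26% of all entries and 12.6% of the measured genes. The CL1-0 log2 ratios of PSAT1 over vector lay on both sides of 0 for either motif. They ran from -0.52 (WARS1) to 0.45 (GARS1) with the interferon letters and from -0.71 (MARS2) to 0.20 (IARS1) with the E-box.

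HARS1 and HARS2, the cytosolic and mitochondrial histidine enzymes, are transcribed away from each other from annotated starts 85 bases apart. The 84 bases between the starts, on the plus strand, are shown because the genes share them, and they held none of the 3 motifs.
HARS1 to HARS2 (chr5:140691371-140691454, plus strand): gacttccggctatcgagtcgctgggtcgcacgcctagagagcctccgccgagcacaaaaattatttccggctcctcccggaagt

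The targeted gene was read first. PSAT1 read 5494 with the PSAT1 vector against 4214 with the control vector in CL1-0 (1.30-fold), while the CL1-5 arrays had 143 under the PSAT1 hairpin and 1760.0 under the non-silencing one (12.3-fold lower). On the probe set used, the PSAT1 array of CL1-0 thus showed only a small excess of the transcript it was labelled for. The labels do not say whether that probe set detects the transcript made from the vector. A floor of 49.0, the pooled 50th percentile of signal with control probe sets left out, replaced every lower value. All 32 synthetase genes were above it on all 4 arrays, so no synthetase ratio is a bound. Exactly the same signal stood on both CL1-0 arrays for 1260 probe sets and on both CL1-5 arrays for 1749, and for 0 between the lines. None of these was the probe set used for a synthetase, though second probe sets of FARS2 and VARS1 were among those in CL1-5. The labels do not say how such values arose, so it is unknown whether the arrays of a line were processed independently of each other, and the ratios within a line carry that doubt. The type II alveolar list had 8 of 10 named markers above the floor on every array, with SFTPD and SLC34A2 below it, although NAPSA and NKX2-1 read no more than 90.5 on any array. Fibroblast markers summed to 601 with PSAT1 against 2983 with vector in CL1-0, where POSTN read 118 against 2154, and to 558 with the hairpin against 537 in CL1-5. Of 7 immune and endothelial markers, 1 was above the floor on the CL1-0 arrays and 2 on the CL1-5 arrays, and PTPRC, CD14, CD3E, LYZ and CDH5 were below it on all 4. The part of these markers in the synthetase ratios was not tested.

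**Figure D1:**
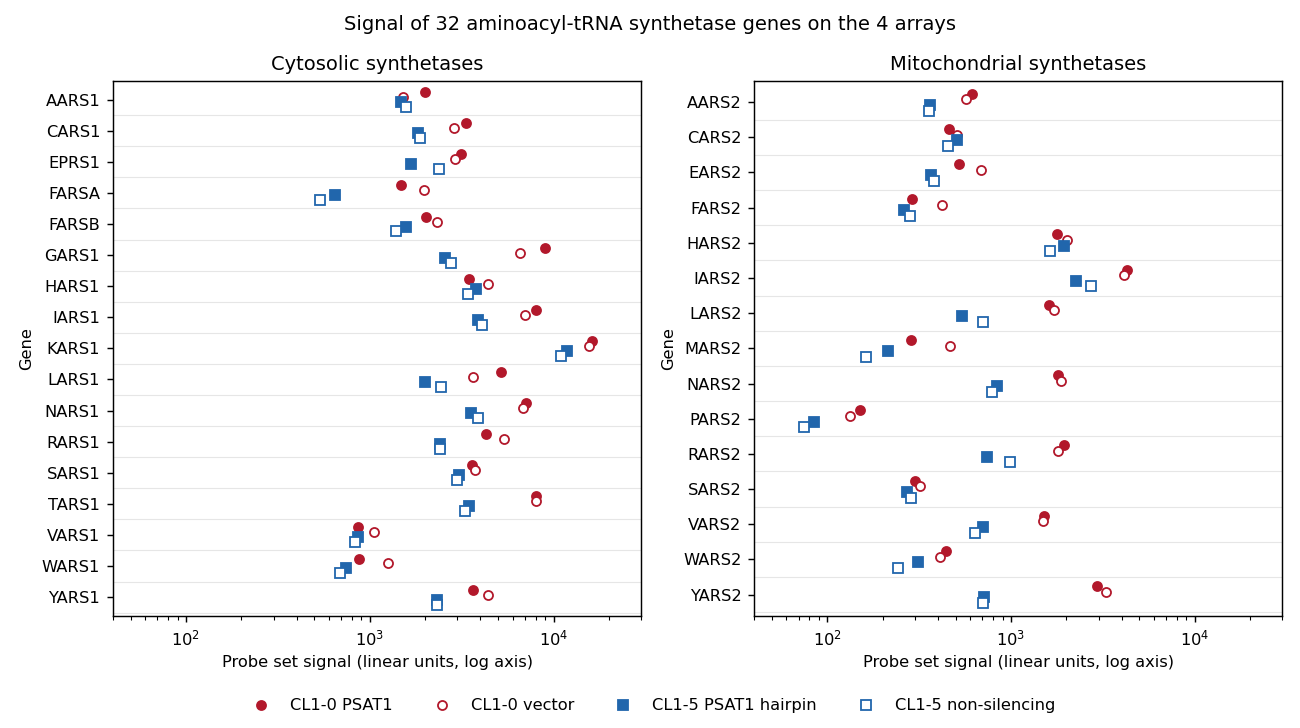
Signal of each synthetase gene (rows) on the 4 arrays, on a log axis in linear signal units, with cytosolic enzymes left and mitochondrial enzymes right. Each symbol is 1 array. Both CL1-5 arrays lie left of both CL1-0 arrays for 28 of 32 genes, and the lines overlap for AARS1, CARS2, HARS1 and HARS2. On the deposited scale, 10537 of all 13720 measured genes were lower in the CL1-5 control than in the CL1-0 control.

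In CL1-0 with PSAT1, the synthetases as a family stayed near the control. No gene was higher by 1.5-fold, the size taken as a change within a line, and 1 of 32, MARS2, was lower. Among all 13187 genes measured in this pair, 9.21% were higher by 1.5-fold and 4.06% were lower, and 3.56% differed by 2-fold either way. Rises made up 69.4% of all 1.5-fold differences, but 57.6% after median centring. That centring subtracted from each array the log2 median of its brighter probe sets only, those that no array read at or under the floor. The median log2 ratio was -0.05 over the 32 genes and -0.01 over all genes. As these are bulk samples, fewer cells expressing a gene and less RNA per cell cannot be told apart.

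The cytosolic enzymes spread to both sides of 0, with 9 ratios above it and 8 below and a median of 0.00. LARS1, which charges leucine tRNA, had the highest ratio, at 5195 with PSAT1 against 3658 with vector (log2 ratio 0.51). Its 3 other probe sets gave log2 ratios of 0.66, 0.55 and 0.41, all on the same side. With quantile normalization LARS1 passed 1.5-fold. GARS1, the glycine enzyme, read 9021 against 6610.2 (0.45), and AARS1, the alanine enzyme, read 1998 against 1523 (0.39). CARS1 for cysteine (3325 against 2882) and IARS1 for isoleucine (8016 against 6976) followed with log2 ratios of 0.21 and 0.20. At the other end, WARS1, the tryptophan enzyme, which interferon gamma is known to induce, read 878 with PSAT1 against 1257 with vector (-0.52), and its second probe set gave -0.54. FARSA, the alpha subunit of the phenylalanine enzyme, read 1473 against 1979 (-0.43, and -0.33 on its other probe set), and its partner subunit FARSB read 2019 against 2336 (-0.21). HARS1 read 3473 against 4406 (-0.34) and RARS1, the arginine enzyme, 4269 against 5382 (-0.33). Each of these lies under 1.5-fold. The SD of log2 ratios between probe sets of one gene, a guide to measurement spread that does not replace a replicate, was 0.264 in this pair.

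Sorted by the promoter letters, the cytosolic genes lay on different sides. All 6 cytosolic genes with TGATGNAA had ratios at or above 0, from 0.00 for TARS1 (8047 against 8040.1) and 0.06 for NARS1 to 0.45 for GARS1, with a median of 0.20. The 8 cytosolic genes with an entry and no match had a median of -0.27 and ran from -0.52 (WARS1) to 0.11 (EPRS1). On the probe sets used, only EPRS1 and KARS1 (0.05) were above 0. SARS1, another of the 8, read -0.05 on the probe set used, but its second probe set gave 0.80. The groups overlapped at their edges. LARS1 (0.51), VARS1 (-0.29) and YARS1 (-0.27) are cytosolic but had no promoter entry, so they are in neither group. YARS2, the mitochondrial gene with the letters, was below 0 (2957 with PSAT1 against 3277 with vector, -0.15). The sorting of the cytosolic genes alone was chosen after seeing the data. Over all measured genes with an entry, the median was 0.02 for the 281 genes with the letters and -0.01 for the rest. None of the 14 genes was past 1.5-fold. With the mean over probe sets the medians were 0.15 with the letters and -0.13 without.

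**Figure D2:**
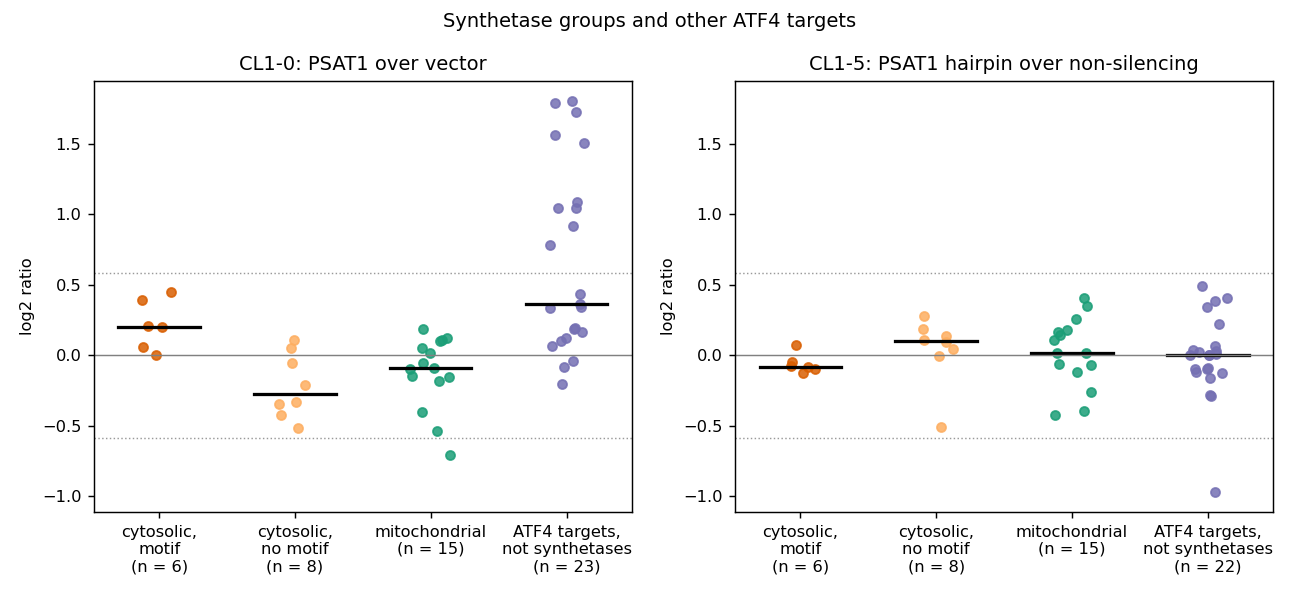
The log2 ratio of each gene (points) in the CL1-0 pair (left) and the CL1-5 pair (right) for cytosolic synthetases with and without the letters TGATGNAA in the promoter, mitochondrial synthetases and other ATF4 targets. Black bars are medians and dotted lines mark 1.5-fold. The cytosolic genes LARS1, VARS1 and YARS1 had no promoter entry and are not shown. In CL1-0 the cytosolic genes with the letters have a median of 0.20 and those without -0.27, while other ATF4 targets reach 1.81.

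The other known ATF4 targets set a scale for these ratios. Of 23 measured in CL1-0, 10 were higher by 1.5-fold and 0 were lower, against 9.21% and 4.06% of all genes, with a median log2 ratio of 0.37 against -0.01. DDIT4, a stress-induced inhibitor of mTORC1, read 5101 with PSAT1 against 1458 with vector, and DDIT3, the stress transcription factor CHOP, read 1922 against 555. VLDLR, a lipoprotein receptor, rose 3.32-fold and JDP2, a transcription factor of the AP-1 family, rose 2.95-fold. ASNS, asparagine synthetase, which responds to amino acid lack through the same element, read 4860 against 4523 (0.10), close to the synthetases. XPOT, which exports tRNA from the nucleus, had a ratio of 0.17. ATF4 itself read 11318 against 9275 (0.29), and EIF2AK4 1707 against 1415 (0.27). None of the 10 genes of amino acid stress sensing passed 1.5-fold.

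Mitochondrial synthetases had a median of -0.09 in CL1-0, with 6 ratios above 0 and 9 below. MARS2, the mitochondrial methionine enzyme, fell to 286 with PSAT1 against 467 with vector (log2 ratio -0.71, 1.63-fold), and 2.43% of all measured genes had a lower ratio. It has 1 probe set, so no second reading was available. FARS2, the mitochondrial phenylalanine enzyme, read 291 against 421 (-0.54, and -0.63 on the other probe set above the floor). EARS2, for glutamate, read 521 against 689 (-0.40), but its 3 other probe sets gave -0.86, -0.64 and 0.13. PARS2 (151 against 133, 0.19), RARS2 (0.12) and WARS2 (0.11) were highest, and the second WARS2 probe set gave -0.44, so its direction is not settled. Of 15 synthetase genes with a further probe set above the floor on all arrays, 5 had a probe set of opposite sign in this pair, namely AARS2, EARS2, SARS1, WARS2 and YARS1. A second SARS1 probe set gave 0.80 where the one used gave -0.05, and a second YARS1 probe set gave 0.65 where the one used gave -0.27.

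By class, the 17 measured class I genes had a median of -0.10 and the 16 class II genes -0.03 in CL1-0, with EPRS1, which joins an enzyme of each class in a single protein, counted in both. The 5 measured genes of the multisynthetase complex, EPRS1, IARS1, KARS1, LARS1 and RARS1, had a median of 0.11, and RARS1 was the 1 below 0. The scaffold AIMP1 read 2311 with PSAT1 against 2930 with vector (-0.34), and it was the 1 scaffold gene with a named probe set. Cytosolic and mitochondrial enzymes for the same amino acid had ratios of the same sign in 7 of 14 pairings, with FARS2 paired with both FARSA and FARSB. Many of these ratios lay close to 0, and the signs of AARS2, EARS2, SARS1, WARS2 and YARS1 depend on the probe set.

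In CL1-5 with the PSAT1 hairpin, none of the 32 genes changed by 1.5-fold, although PSAT1 signal was 12.3-fold lower. Over all 12821 genes of this pair, 1.67% were higher by 1.5-fold, 2.15% were lower and 0.819% differed by 2-fold either way. The median log2 ratio was 0.02 over the synthetases and 0.02 over all genes. The lowest ratio was that of EPRS1, the enzyme for glutamate and proline, which read 1670.2 under the hairpin and 2371 under the non-silencing vector (-0.51), with -0.22 and -0.31 on its other probe sets. NARS1, the asparagine enzyme, read 3546 against 3864 (-0.12). LARS1 read 1993 against 2441 (-0.29), and all 3 of its other probe sets were also below 0, from -0.37 to -0.07. FARSA read 651 against 537 (0.28), with 0.27 on its other probe set, and FARSB read 1579 against 1387 (0.19). The SD between probe sets of one gene was 0.171 here.

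Among mitochondrial enzymes in CL1-5, RARS2 read 740 with the hairpin against 990.1 (-0.42), LARS2 538 against 707 (-0.39) and IARS2 2273 against 2717 (-0.26). MARS2 had the highest ratio of all 32 genes, at 215 with the hairpin against 162 (0.41), and WARS2 read 312 against 244 (0.35). HARS2 read 1951 against 1633 (0.26) and HARS1 3777 against 3440 (0.14). The other ATF4 targets had 0 rises and 1 fall among 22 measured, VLDLR, which read 78.5 with the hairpin against 154 (1.96-fold lower), and their median was 0.00. ATF4 read 5136 against 5154. TARS3, a further threonine enzyme outside the symbol rule, read 357 against 247 (0.53), the highest ratio among 13 measured partners of tRNA charging, of which 10 had ratios above 0 and none passed 1.5-fold.

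The manipulations share no array, and their constructs were labelled to move PSAT1 in opposite directions, so the ratios were set side by side. Opposite signs were found for 21 of 32 synthetase genes, against 56.3% of the 11941 genes measured in both pairs. Many of these signs rest on small ratios, as 17 of the 32 genes lay within 0.2 of 0 in CL1-0 and 23 in CL1-5. Among cytosolic genes the count was 14 of 17, and among mitochondrial genes 7 of 15. With the mean over probe sets these were 12 of 17 and 9 of 15, so the split between compartments depends on the choice of probe set. Across genes, Pearson r was -0.42 over the 32 synthetases (Spearman rho -0.42), -0.65 over the 17 cytosolic ones, -0.21 over the 15 mitochondrial ones (rho -0.09) and -0.17 over all genes. These are descriptions across genes, which are not independent replicates and which share arrays, line and platform. MARS2 was lowest in CL1-0 and highest in CL1-5, LARS1 was highest in CL1-0 and below 0 in CL1-5, and FARSA, HARS1 and WARS1 were below 0 in CL1-0 and above 0 in CL1-5. Of the cytosolic genes with the TGATGNAA letters, 5 of 6 had opposite signs, and of those without, 6 of 8 did. HARS1 and HARS2, which share the promoter stretch shown above, kept the same order in both pairs, at -0.34 and -0.18 in CL1-0 and 0.14 and 0.26 in CL1-5.

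**Figure D3:**
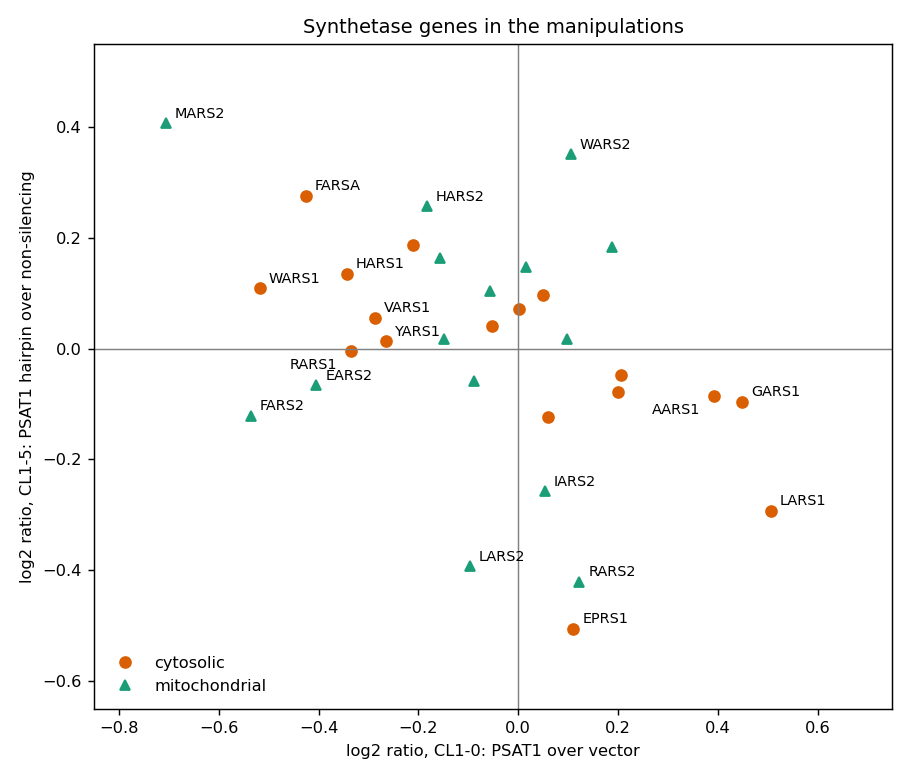
The log2 ratio of each synthetase gene in CL1-0 (PSAT1 over vector, horizontal) against CL1-5 (PSAT1 hairpin over non-silencing, vertical), with cytosolic and mitochondrial genes as different symbols. Points in the upper left and lower right have opposite signs, as 21 of 32 do. MARS2 lies at -0.71 and 0.41, and LARS1 at 0.51 and -0.29.

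Between the lines, synthetase signal was lower in the invasive CL1-5 control than in the CL1-0 control for 31 of 32 genes. On the deposited scale the bulk of all genes was shifted the same way, with 10537 of 13720 measured genes below 0. The median log2 ratio over all 13720 measured genes was -0.49, against -0.77 for the synthetases. At 2-fold, 9 of 32 synthetases were lower and 0 were higher, against 24.8% of all genes lower and 5.25% higher, and 53% of all genes differed by 1.5-fold either way. After quantile normalization, which removes the shift (median of all genes 0.00), 2 of 32 were lower and 0 higher, against 8.76% and 9.43% of all genes. The split of all calls followed the scaling, with 17.5% of them rises on the deposited scale, 51.8% after quantile normalization and 54.6% after median centring. The synthetase median after quantile normalization was -0.13, and 20 of 32 genes were below 0. The SD between probe sets of one gene was 0.507 in this comparison.

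The genes past 2-fold under all 3 scalings were YARS2 and FARSA. YARS2 read 706 in CL1-5 against 3277 in CL1-0 (log2 ratio -2.22, and -1.50 after quantile normalization), and the cytosolic tyrosine enzyme, YARS1, read 2313 against 4378 (-0.92 and -0.27). FARSA read 537 against 1979 (-1.88 and -1.14), with -1.80 on its other probe set. FARSB, the subunit that pairs with FARSA, read 1387 against 2336 (-0.75 and -0.01), so the subunits differed in their ratios. MARS2 read 162 against 467 (-1.53 and -0.95). On the deposited scale GARS1 (2751 against 6610.2), TARS1 (3306 against 8040.1), LARS2 (707 against 1716), NARS2 (784 against 1878), VARS2 (635 against 1487) and RARS1 (2415 against 5382) were also lower by 2-fold, and after quantile normalization their log2 ratios lay between -0.69 and -0.51. Averaging the probe sets of a gene gave -0.78 for LARS2 and -0.64 for TARS1, short of 2-fold, and a second LARS2 probe set read 392 against 479 (-0.29). The second TARS1 probe set read 27.6 against 42.6, both under the floor. After flooring it held no difference, which pulled the TARS1 mean down in size, so that mean is not a disagreeing second reading.

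On the manipulated arrays of the lines, CL1-5 with the hairpin and CL1-0 with PSAT1, the signals were 714 and 2957 for YARS2, 651 and 1473 for FARSA, and 215 and 286 for MARS2. They were 2575 and 9021 for GARS1, 3475 and 8047 for TARS1, 2407 and 4269 for RARS1, 538 and 1604 for LARS2, 843 and 1806 for NARS2, and 703 and 1504 for VARS2. MARS2 in CL1-0 with PSAT1 was nearer to CL1-5 with the hairpin than to its own vector control.

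AARS1 stood at the other end, at 1566 in CL1-5 against 1523 in CL1-0 (0.04), which became 0.76 after quantile normalization and 0.66 after median centring. EPRS1 (-0.29) and SARS1, the serine enzyme (-0.34), followed among the cytosolic enzymes, and SARS2 (-0.17), CARS2 (-0.18) and HARS2 (-0.31) were highest among the mitochondrial ones. A second SARS1 probe set gave -1.50, and EPRS1, LARS1 and VARS1 each had a probe set above 0 on the deposited scale. In all, 10 genes that were below 0 on the deposited scale were above 0 under both other scalings, so the direction of the family's milder members between the lines depends on the scale. Among pairings of a cytosolic and a mitochondrial enzyme, 13 of 14 had the same sign on the deposited scale, AARS1 and AARS2 being the exception. As 31 of 32 genes lay below 0 on that scale, only a pairing with AARS1 could differ, so the count says nothing about pairing.

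**Figure D4:**
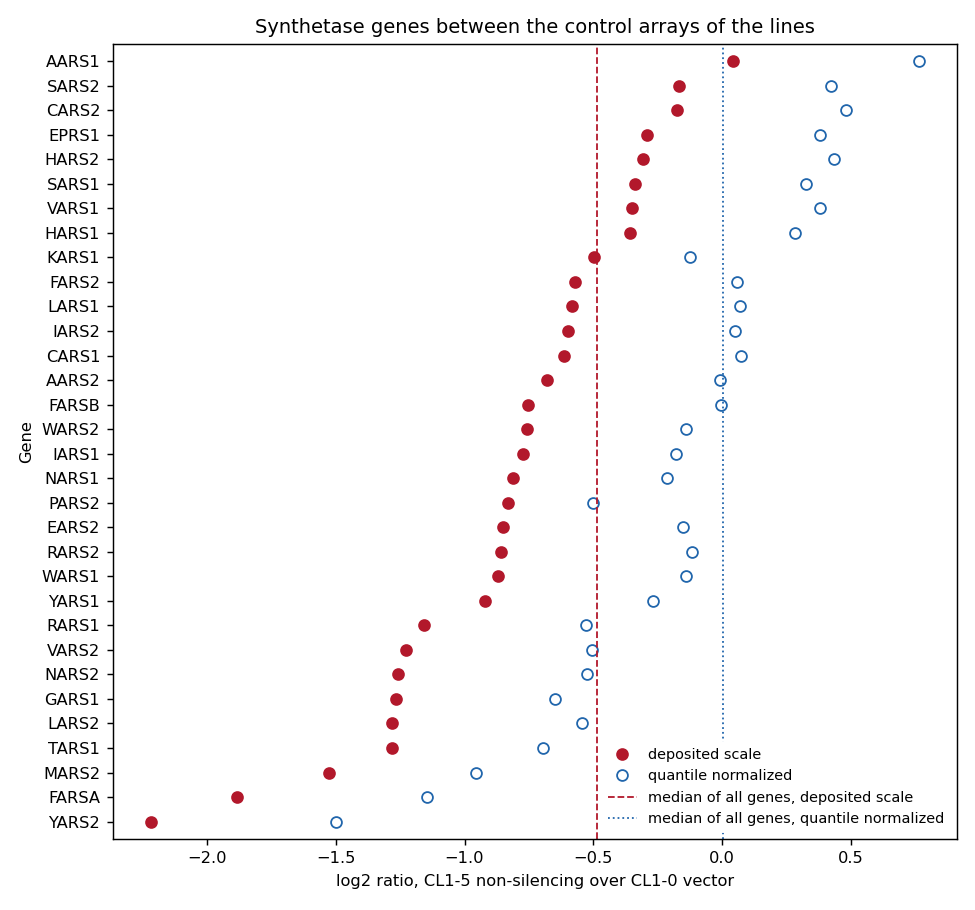
The log2 ratio of each synthetase gene between the control arrays of the lines, CL1-5 non-silencing over CL1-0 vector, sorted by the deposited scale (filled) with quantile normalized values beside it (open). Vertical lines mark the median of all genes on each scale, -0.49 and 0.00. YARS2 and FARSA lie furthest left on both scales, and AARS1 furthest right.

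The genes on either side of YARS2 and FARSA in the RefSeq order were read after those values had been seen, 3 measured protein-coding genes on each side. Distances between them are not given here, so neighbours in this order need not lie close together. Around YARS2 on chromosome 12, 4 of 6 neighbours had ratios below the median of all genes, among them BICD1 (198 in CL1-5 against 1047 in CL1-0, -2.41), CPNE8 (-2.04) and ALG10 (-1.92), while the adjacent DNM1L had -0.39. Around FARSA on chromosome 19, 5 of 6 did, among them DNASE2 (-1.78), CALR (-1.50) and GCDH (-1.23), while SYCE2 was above the floor in CL1-5 alone. The part of shared genomic position in the ratios of YARS2 and FARSA was not tested.

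The lists below are on the deposited scale, on which the median of all genes was -0.49. Of 13 measured partners of tRNA charging, 7 were lower by 2-fold and 0 higher, against 24.8% and 5.25% of all genes, led by TRNT1, which adds the CCA end to tRNA and read 280 in CL1-5 against 1964 in CL1-0 (7.02-fold). Their median was -1.02, or -0.54 relative to the median of all genes. Of 23 other ATF4 targets, 14 were lower and 1, VLDLR, was higher, set against the same shares of all genes, with a median of -1.23, or -0.74 relative to all genes. ASNS read 860.0 against 4523 and the cystine transporter SLC7A11 read 576 against 4340.4. Of 10 genes of amino acid stress sensing, 5 were lower and 0 higher, again against 24.8% and 5.25% of all genes, with a median of -1.05, or -0.56 relative to all genes. The lowest were PPP1R15B, which directs dephosphorylation of eIF2 alpha (-2.13), and EIF2AK3, the kinase PERK (-1.97). EEF1A1, the elongation factor that carries charged tRNA to the ribosome in the cytosol, read 25088 against 25271, near the top of the signal range, whereas EEF1A2, its tissue-restricted relative, was lower (-1.71). The mitochondrial counterpart of EEF1A1, TUFM, read 3050.4 against 5978 (-0.97) and was under 2-fold. TSFM, a further elongation factor of mitochondria, read 722 against 1917 (-1.41) and was past it. Of the 5 measured elongation factors, 2 were lower by 2-fold and 0 higher, against 24.8% and 5.25% of all genes.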

How the data were processed

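The authors deposited linear probe set intensity, 1 value for each of 54675 probe sets (62 of them controls) on 4 arrays, for which the submitters' processing notes name MAS5. Whether MAS5 alone made the values is not settled, since some probe sets hold identical values on both arrays of a line and none do between lines. Its version, any scaling target and detection calls are not given in the sources used here. Each sample's group came from its shRNA label. Values were set to a floor at the pooled 50th percentile and log2 transformed, and a gene was measured in a pair if at least 1 array was above the floor. Ratios within a line counted as changes at 1.5-fold and ratios between lines at 2-fold. The array medians were 45.4 to 53.2, and the number of arrays limits the precision. The platform annotation gave 1 symbol to 41097 probe sets and several to 1801, and symbols were updated through RefSeq for 41043. Y-linked and X-inactivation genes (59 probe sets) were left out. With 1 array per group no test was made. Alternatives were quantile normalization, median centring, floors at the 25th and 65th percentile, the mean over probe sets, leaving out multi-transcript probe sets and another fold. The median used for centring skipped any probe set that reached the floor on some array, so it is not the array median given here. Members and gene lists were chosen with earlier results of these data known. Named were genes past the fold, the 3 highest and lowest of each compartment in each comparison, PSAT1 and genes of the other lists past the fold, up to 4 a list. A search of protein motifs and a naming of the brightest and dimmest genes were planned and not carried out. Further genes, among them ASNS, ATF4, EEF1A1, XPOT and the neighbours of YARS2 and FARSA, were named after their values were seen. Computation used Python 3.11.15, numpy 2.4.6, pandas 2.3.3 and matplotlib 3.10.9, and ratios were checked on simulated data.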

Additional observations from a re-analysis of the deposited data

How the results depend on the processing

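The count of changed synthetases in CL1-0 was 1 as reported, 2 with quantile normalization (LARS1 added), 3 with median centring (FARS2 and WARS1 added), 2 without multi-transcript probe sets (YARS1 added, through its dimmer probe set) and 0 at 2-fold. In CL1-5 it was 0 under every alternative run. Between the lines 9 genes were lower as reported, 2 under quantile normalization and 2 under median centring, 3 relative to the median of all genes (an alternative chosen after seeing the data) and 21 at 1.5-fold. It was 7 with the mean over probe sets (LARS2 and TARS1 lost) and 8 without multi-transcript probe sets, where GARS1 had no probe set left. TARS1 was lost through a probe set under the floor on both control arrays. The median between the lines was -0.13 under quantile normalization and -0.15 under median centring, against -0.77 as reported, which the shift of all genes moves by construction. Opposite signs in the manipulations ran from 15 of 26 genes without multi-transcript probe sets to 23 of 32 with median centring. The shares of all genes were 55.6% and 58.6% under these settings. This count and the promoter medians were added after seeing the data. Values of single genes were followed for those past the fold and the 3 highest and lowest of each compartment in each comparison. They moved by less than the spread between probe sets in 194 readings and by more in 33. The 194 include readings that could not move. The other floors left the values of these genes as they were, and averaging cannot change a gene with a single probe set. The tally is therefore not a measure of robustness. Of the 33, all but that of RARS2 were between the lines, and no change called by size turned its sign. Other named genes were not tallied, among them FARSB, SARS1 and YARS1 in CL1-0. Second probe sets of SARS1 and YARS1 gave 0.80 and 0.65 there, where those used gave -0.05 and -0.27. Single arrays allow no replicate to be left out. No paired analysis was possible because each group holds 1 array. Without detection calls, signals near the floor, such as those of PARS2, are the least certain.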

Other observations

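PSTK, the kinase that acts on seryl-tRNA in selenocysteine synthesis, read 216 with the hairpin against 155 in CL1-5 (log2 ratio 0.47) and 338 with PSAT1 against 266 with vector in CL1-0 (0.35). SEPSECS, the next enzyme of that route, read 132 with the hairpin against 110.0 in CL1-5 (0.27) and 133 with PSAT1 against 163 in CL1-0 (-0.30). SEPHS2, which supplies selenophosphate, had ratios of -0.13 in CL1-5 and -0.07 in CL1-0. GATC, a subunit of the mitochondrial enzyme that makes glutaminyl-tRNA, read 633 with PSAT1 against 467 in CL1-0 (0.44), while GATB and QRSL1, the other subunits, had ratios of 0.02 and -0.04. None of these passed 1.5-fold, and they were picked after their values were seen.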
